A study of Solanum lycopersicum with 8 samples.

Results

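The comparison set 2 RNA libraries from the tomato mutant pro∆GRAS without gibberellin A3 (GA3) against 2 libraries from the cultivar M82 sampled after a GA3 application, 4 of the 8 libraries of the series. They were chosen by genotype and treatment alone. All seedlings of both genotypes had received paclobutrazol, an inhibitor of gibberellin synthesis, at 10 mg/l once a day for 3 days, and RNA was taken from young leaves. The M82 seedlings compared here then received 100 µM GA3 and were sampled 3 hours later, while the mutant seedlings compared here received none. The question was how a lasting loss of DELLA differs from a short GA3 treatment of plants that make DELLA. No M82 library without GA3 entered the comparison, so a higher or lower level is always relative to M82 after GA3, and genotype and GA3 differ together between the groups and cannot be told apart. The labels do not say whether a library came from 1 plant or from several, or whether the mutant libraries came from related plants, so the p-values reflect library-to-library spread, which may be technical.

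DELLA proteins are nuclear repressors that hold back growth by binding transcription factors and other regulators. Gibberellin binds the receptor GID1, the complex then binds DELLA, and an F-box protein marks DELLA for destruction, so that applied gibberellin removes the repressor within hours. PROCERA is the DELLA protein of tomato. Its C-terminal GRAS domain carries the repressor activity, and procera mutants grow tall, with leaves that have smoother margins.

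The 4 libraries were of similar depth, with 17757386 and 17585593 counts in M82 with GA3 (libraries 1 and 2) and 18483028 and 17782393 in the mutant (libraries 1 and 3, as the deposited table numbers them). M82 library 2 stood apart: its 100 most abundant genes took 50.3% of all counts, against 41.3%, 39.5% and 37.7% in the other 3. The standard deviation of the log2 ratio between libraries over the 17599 genes tested was 0.440 within M82 and 0.423 within the mutant. Between the groups it ran from 0.507 to 0.669, with the 2 highest values in the pairs that held M82 library 2. Chi-square per degree of freedom on raw counts gave another order, with 55.3 within M82 and 36.4 within the mutant. Between the groups that measure ran from 41.5 (M82 library 1 and mutant library 1) to 150. The gene identifiers could not be paired with names: 0 of 34722 were found in the tomato gene table used here, which lists 41476 genes. For that reason the PROCERA transcript, leaf markers and markers of other cell types were not analysed here, and genes are described by level, fold change and chromosome, with 2 identifiers in each direction.

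The mutant without GA3 and M82 with GA3 differed at 356 of 17599 genes tested (2.02%) in near-equal numbers in each direction. In the mutant, 180 genes (1.02%) were higher and 176 (1%) were lower. The test was edgeR's quasi-likelihood test on the 4 libraries, and a gene is called where the Benjamini-Hochberg adjusted p is under 0.05. Levels are given in CPM, edgeR's value after TMM scaling by library, so levels of different genes are not corrected for transcript length. In this bulk tissue, fewer cells of a type and less RNA per cell cannot be told apart. The number of calls depended on which libraries were in the model. With all 8, which also changed the filter and the scaling (18340 genes tested), the same contrast called 24 genes, 11 higher and 13 lower, and all 24 were among the 356. DESeq2 called 838 genes (4.76%), 355 of them among the 356.

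**Figure D1:**
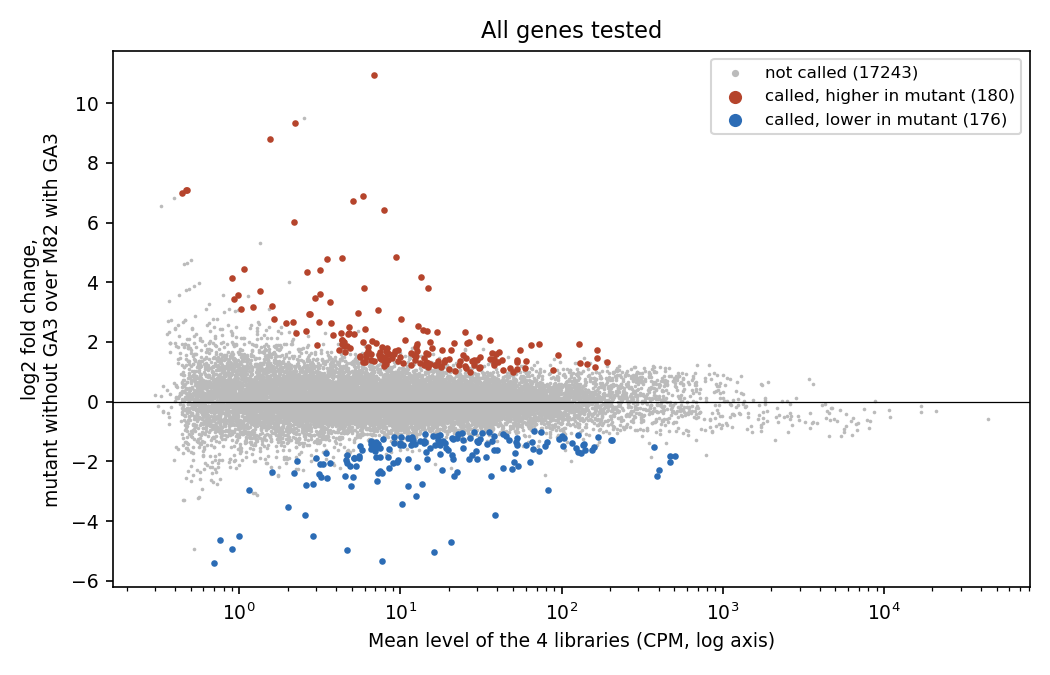
Each point is 1 of the 17599 genes tested, with its mean level over the 4 libraries on a log axis in CPM and its log2 fold change, mutant without GA3 over M82 with GA3, on the vertical axis. Red points are the 180 genes called higher and blue points the 176 called lower in the mutant. The fold changes reach 10.94 upward and -5.41 downward.

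The 180 genes higher in the mutant were mostly of low to middling level. Their median was 4.48 and 4.36 CPM in M82 libraries 1 and 2 after GA3, and 14.2 and 15.5 CPM in mutant libraries 1 and 3. Their log2 fold changes had a median of 1.70 (quartiles 1.36 and 2.33), against 0.00244 over all genes tested. In 119 of them the fitted change lay between 2-fold and 4-fold, in 41 between 4-fold and 16-fold, and in 18 it was 16-fold or more. The highest mean in the mutant was 272 CPM, and 11 of the 180 were above 100 CPM there. Together these genes took 0.610% and 0.597% of the counts in the mutant libraries, and 0.210% and 0.165% in M82 with GA3.

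The 176 genes lower in the mutant, and so higher in M82 after GA3, were more abundant. Their median was 22.1 and 26.2 CPM in the M82 libraries and 7.50 and 7.97 CPM in the mutant libraries. Their log2 fold changes had a median of -1.62 (quartiles -2.16 and -1.34). The fitted change lay between 2-fold and 4-fold in 121 of them, between 4-fold and 16-fold in 45, and was 16-fold or more in 9. On the M82 side 29 of them were above 100 CPM, and the highest mean was 783 CPM. They took 1.08% and 1.18% of the counts in M82 with GA3 and 0.443% and 0.370% in the mutant.

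The groups did not overlap in any of the 356 called genes. This alone is a weak mark, since the mutant libraries lay above both M82 libraries in 25.4% of all genes tested and below both in 25.1%. A second measure set the gap between the nearest libraries of the 2 groups against the wider gap inside a group (log2 CPM). The test that chose these genes weighs such gaps in the same 4 libraries, so the measure was bound to favour them. The share over all genes tested was not computed. The gap between groups was the larger in 164 of the 180 higher genes and in 165 of the 176 lower genes. Its median was 1.19 in the higher genes and 1.22 in the lower genes, against medians of 0.552 and 0.546 for the wider gap inside a group.

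In this fit, genes of high level were more often called lower than higher in the mutant. Of 1311 genes with a mean over 100 CPM, 22 (1.68%) were called lower and 7 (0.534%) higher. Between 10 and 100 CPM, 90 of 6866 genes (1.31%) were lower and 82 (1.19%) higher. Between 1 and 10 CPM the order was the other way, with 60 of 7897 genes (0.760%) lower and 85 (1.08%) higher. In numbers, the excess of lower calls among abundant genes was not kept under every setting, though the total calls in each direction also changed. With library totals as the only scaling there were 4 lower and 4 higher, of 52 lower and 101 higher over all genes tested. DESeq2 gave 84 lower and 91 higher, of 397 and 441. With no filter there were 81 lower and 92 higher, of 702 and 916. With all 8 libraries in the model, 0 genes over 100 CPM were called in either direction, of 13 lower and 11 higher.

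Precision was lowest for genes of low level. The median standard error of the log2 fold change was 0.283 over 100 CPM, 0.245 between 10 and 100 CPM, 0.382 between 1 and 10 CPM and 0.729 under 1 CPM. The smallest change called was 0.99 on the log2 scale upward and -0.996 downward, so changes under about 2-fold were at the edge of what 2 libraries a side could show. A fitted change of at least 2-fold missed the threshold in 1578 of the 17599 genes tested. Of these, 992 were higher and 586 lower in the mutant. Their levels were not broken down, so no direction is read from this split.

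The 2 genes with the highest fold changes of all called genes averaging 1 CPM or more had no count in either M82 library after GA3. Solyc11g008420.1, on chromosome 11, was counted 0 and 0 times in the M82 libraries and 225 and 296 times in the mutant libraries, or 11.28 and 15.99 CPM. Set against a floor of 3 counts over the 2 M82 libraries, its mean of 13.6 ± 3.33 CPM (SD, n = 2) was at least 152-fold higher (edgeR adjusted p = 0.000113). In the mutant with GA3, which took no part in the test, it was at 13.1 and 11.9 CPM. All 4 mutant libraries therefore held this transcript at a similar level.

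Solyc01g081250.2, on chromosome 1, showed the same pattern at a lower level. It was counted 0 and 0 times in M82 with GA3 and 108 and 65 times in the mutant, or 5.42 and 3.51 CPM. By the same floor its mean of 4.46 ± 1.35 CPM (SD, n = 2) was at least 49.9-fold higher (edgeR adjusted p = 0.00260). The mutant libraries with GA3 were at 5.78 and 3.15 CPM, a span that holds both values without GA3.

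With the same minimum, the lowest fold change belonged to Solyc11g021060.1, on chromosome 11. It was at 5.66 and 24.4 CPM in M82 libraries 1 and 2 after GA3 and at 0.351 and 0.378 CPM in the mutant libraries. The M82 libraries were thus far apart from each other, though both lay well above the mutant. The log2 fold change was -5.33 (SE 0.782, edgeR adjusted p = 0.0193). It was -3.94 without M82 library 2, and the adjusted p was 0.129 without mutant library 1.

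Solyc07g041910.2, on chromosome 7, was at 20.1 and 42.3 CPM in M82 with GA3 and at 0.853 and 1.03 CPM in the mutant. Both M82 libraries were high and both mutant libraries were near 1 CPM. The log2 fold change was -5.04 (SE 0.418, edgeR adjusted p = 0.000371), and without M82 library 2 it was -4.41. All 4 genes named were also among the 24 called with all 8 libraries in the model. Their adjusted p-values there were 0.00436 for Solyc11g008420.1, 0.0312 for Solyc01g081250.2, 0.0469 for Solyc11g021060.1 and 0.0151 for Solyc07g041910.2 (edgeR). That model compares the same 4 libraries, which also chose these genes, so its calls are not separate support.

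**Figure D2:**
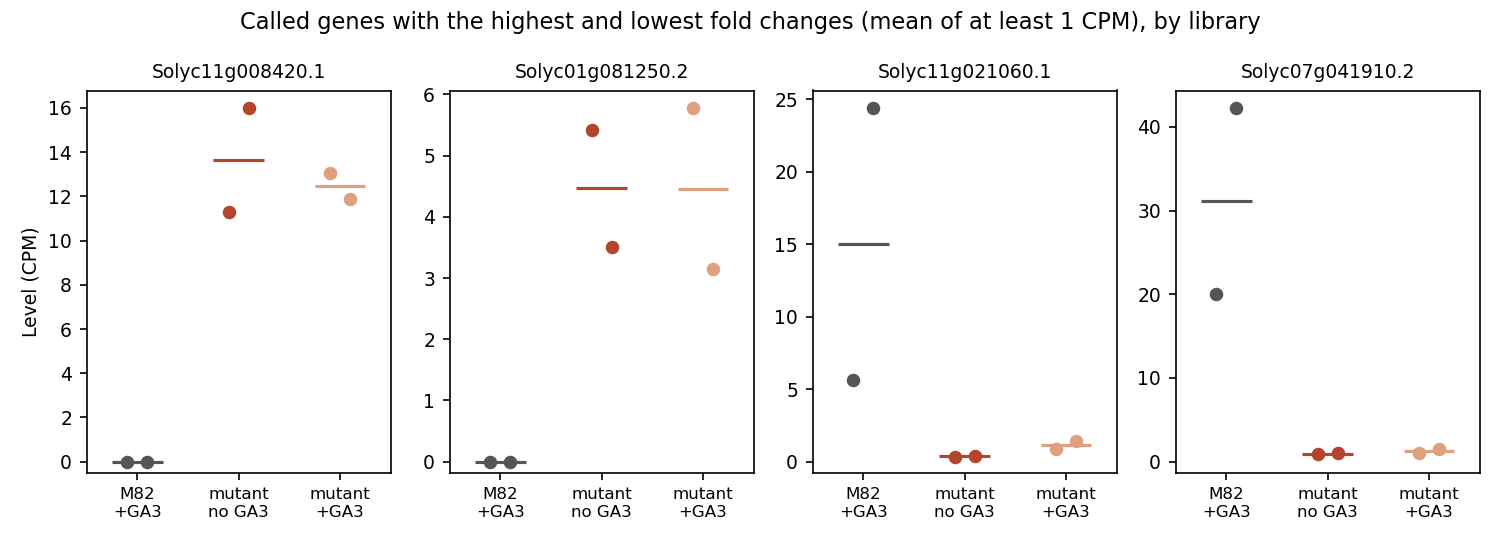
Levels in CPM of the 2 genes with the highest and the 2 with the lowest fold changes of all called genes averaging 1 CPM or more; points are single libraries and lines are the means of 2. M82 with GA3 is at 0 in the first 2 panels and above the mutant in the other 2, and the mutant libraries with GA3, which were not part of the test, are shown for reference.

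Transcripts found on 1 side alone were found in the mutant. In the whole table, 10 genes had at least 10 counts in each mutant library and none in either M82 library with GA3, and 0 genes showed the reverse at the same minimum. Of the 10, 6 were called higher, with means of 0.878 to 13.6 CPM in the mutant, on 4 chromosomes. Over all genes tested 1.02% were called higher, but the 10 were picked by the counts tested, so their calls are no separate support. The 4 that were not called had means of 0.654 to 5.01 CPM, and the highest of these rested on 1 library, with 187 counts in mutant library 1 and 12 in mutant library 3. All 10 also had counts in both mutant libraries with GA3, but some had few. A called gene had 1 and 5 there, beside 21 and 13 without GA3, and a gene not called had 16 and 1. M82 library 2 had the lowest TMM factor, 0.841, against 1.06 in M82 library 1 and 1.08 and 1.04 in mutant libraries 1 and 3. Whether this added to the 0 counts in M82 was not tested.

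By the chromosome number that the identifier carries, called genes lay on each of the 12 chromosomes, and 3 called genes (2 higher, 1 lower) carried the number 0, which stands for no assigned chromosome. On the numbered chromosomes the share called ran from 1.34% on chromosome 2 to 2.55% on chromosome 11. Chromosome 3 had the highest share of genes lower in the mutant: 34 of 1844 tested (1.84%) were lower and 11 (0.597%) were higher. Chromosome 11 had the highest share of higher genes, with 19 of 1176 (1.62%) higher and 11 (0.935%) lower. On chromosome 3, DESeq2 called 60 genes lower and 36 higher, of 397 lower and 441 higher over all genes tested. With no filter the numbers were 95 and 81, of 702 and 916. With all 8 libraries in the model they were 2 and 0, of 13 and 11.

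**Figure D3:**
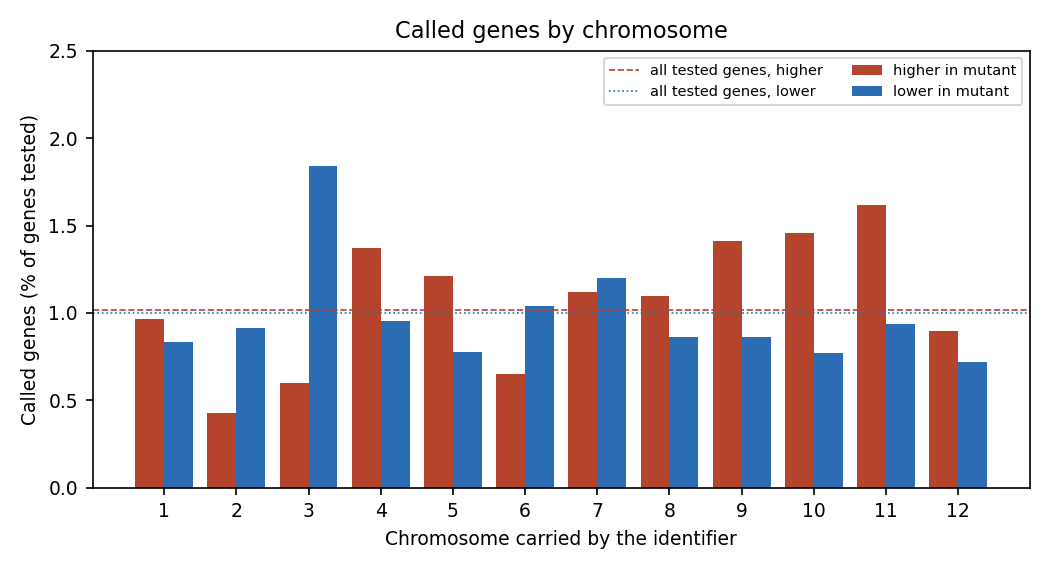
Genes called higher (red) and lower (blue) in the mutant, as a percentage of the genes tested on each chromosome; the horizontal lines mark 1.02% and 1%, the shares over all genes tested. Chromosome 3 stands at 1.84% lower and 0.597% higher, and chromosome 11 at 1.62% higher and 0.935% lower.

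Some called genes were neighbours, taking the order of the tomato identifiers along a chromosome and counting tested genes alone. Of 178 higher genes on numbered chromosomes, 18 (10.1%) had a neighbour that was also higher, while 2.02% of all tested genes had such a neighbour. Of 175 lower genes, 10 (5.71%) had a lower neighbour, against 1.99% of all tested genes. The higher genes formed 7 pairs and 1 run of 4, and the lower genes formed 5 pairs. With all 8 libraries in the model, 0 of 11 higher genes had such a neighbour, against 0.121% of all tested genes. Of the 13 lower genes there, 2 had one (15.4%, against 0.143%), so these shares rest on few genes. With DESeq2 the numbers were 51 of 435 higher genes (11.7%, against 4.9%) and 48 of 395 lower genes (12.2%, against 4.41%). Neighbours in tomato can be near-identical copies between which reads are divided, and overlapping genes share reads in a library without strand, so the fold of each single neighbour is uncertain.

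The run of 4 higher genes was on chromosome 9. Their summed level was 32.2 and 43.8 CPM in the M82 libraries after GA3 and 148 and 103 CPM in the mutant libraries, with log2 fold changes of 1.31 to 2.32 (edgeR adjusted p from 0.00192 to 0.0286). Both mutant libraries were above both M82 libraries, and the mutant libraries with GA3 stood at 171 and 104 CPM. A pair on chromosome 10 had the largest change among the higher pairs, with a summed level of 0.480 and 0.676 CPM in M82 and 12.99 and 17.99 CPM in the mutant (edgeR adjusted p of 0.000113 and 0.00942). In the mutant with GA3 this pair was at 50.3 and 9.18 CPM, so those 2 libraries were far apart.

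Among the lower pairs, Solyc07g041910.2 and its neighbour had the largest change. Their summed level was 46.0 and 96.2 CPM in M82 after GA3 and 2.31 and 2.65 CPM in the mutant. M82 library 2 was well above library 1, and the mutant libraries were close together. A pair on chromosome 2 was at 173 and 282 CPM in M82 and at 34.4 and 37.3 CPM in the mutant (edgeR adjusted p of 0.00145 and 0.00260). The most abundant lower pair, on chromosome 7, was at 492 and 1177 CPM in M82 and at 218 and 192 CPM in the mutant (edgeR adjusted p of 0.0284 and 0.0290). In these 3 pairs the higher M82 value was that of library 2, whereas in the other 2 lower pairs it was that of library 1, with 44.6 against 28.9 CPM on chromosome 3 and 120.5 against 106 CPM on chromosome 9. These runs were picked out after their values were seen.

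The mutant libraries with GA3 give the levels of both lists in libraries that did not choose them, in the same genotype. The 180 higher genes had medians of 19.5 and 12.5 CPM there, beside 14.2 and 15.5 CPM in the mutant without GA3 and 4.48 and 4.36 CPM in M82 with GA3. The 176 lower genes had medians of 9.20 and 11.2 CPM there, beside 7.50 and 7.97 CPM in the mutant without GA3 and 22.1 and 26.2 CPM in M82 with GA3. For both lists the mutant libraries with GA3 lay on the side of the mutant without GA3. These are levels of lists chosen in 4 of the 6 libraries and carry no test.

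**Figure D4:**
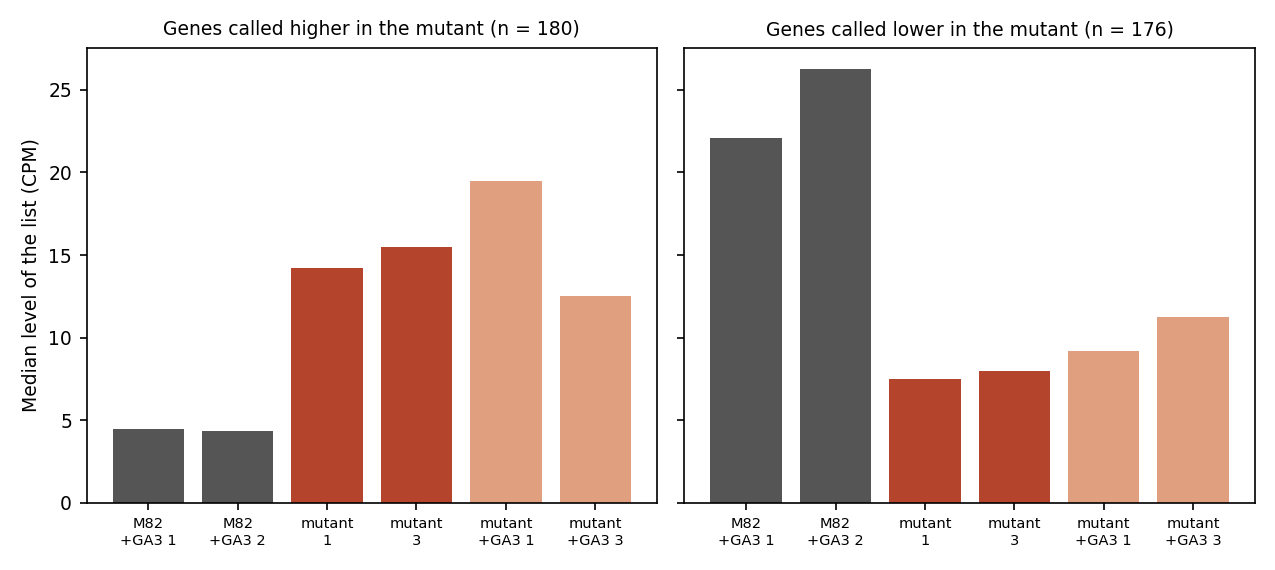
Median level in CPM of the 180 genes called higher (left) and the 176 called lower (right) in each of 6 libraries; bars start at 0. The mutant libraries with GA3, at 19.5 and 12.5 CPM on the left and 9.20 and 11.2 CPM on the right, did not take part in choosing the genes.

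The genes called in several fits form a smaller set with larger changes. Each fit compared libraries of the same 4, and passing several thresholds favours large changes, so neither trait is separate support. Of the 356 genes, 245 were called the same way in each of the 4 fits that left out a library, 128 higher and 117 lower, with median log2 fold changes of 1.81 and -1.85. Of the 24 genes called with all 8 libraries in the model, 23 were also called in each of those 4 fits. The 11 higher genes among the 24 had log2 fold changes of at least 2.32, with a median of 4.83. The 13 lower genes had changes of -1.78 or further from 0, with a median of -2.52. In all 12 alternative fits, 19 genes were called the same way, 8 higher and 11 lower, on 9 chromosomes.

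**Figure D5:**
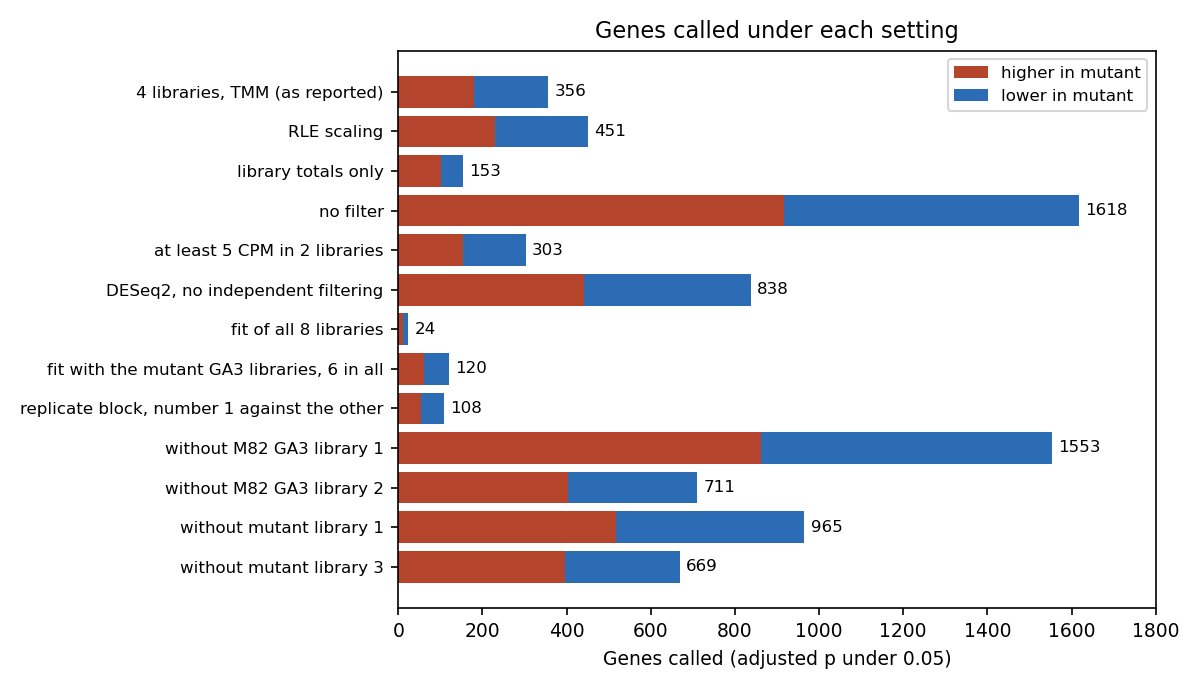
Genes called (adjusted p under 0.05) under each setting, higher in the mutant in red and lower in blue, with the total beside each bar. The total was 356 as reported, 24 with all 8 libraries in the model and 1618 with no filter on low counts.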

How the data were processed

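RNA was sequenced from young leaves. The labels' protocols name a TruSeq v2 kit, which does not mark strand, and 1 lane for all libraries. Raw read counts per gene were used as deposited by the authors, and 8 columns of normalized counts were not used. DESeq2 1.6.3, HTSeq 0.6.1p1 and TopHat2 2.0.10 appear, with no role, in the submitters' processing notes; build and annotation are not given in the sources used here. Mutant library 3 carries a number found in no title and was placed by genotype and treatment.

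After filterByExpr at a minimum count of 10, 17599 genes with 99.9% of all counts stayed. They were scaled with TMM and tested with edgeR 4.0.16 (robust quasi-likelihood fit, R 4.3.3) on the 4 libraries, with 2 residual degrees of freedom and an estimated prior of 9.37. DESeq2 1.42.0 was an alternative. The scripts were tested on simulated data. Standard errors are the log2 fold change over the square root of F. Mutant libraries with GA3 were placed on the same CPM scale by TMM factors over 6 libraries. Floors cover counting error only. Libraries of a group were not copies of each other (chi-square per degree of freedom 55.3 and 36.4). Genes named are the called genes of 2 highest and 2 lowest fold changes, given a mean no lower than 1 CPM and no overlap, the rule for identifiers without names; 36 gene lists set by description could not be matched. The comparison, lists and alternatives were chosen with earlier results of these data known.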

Additional observations from a re-analysis of the deposited data

How the results depend on the processing

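All 356 called genes kept their direction wherever they were tested. Their groups did not overlap and each alternative compared libraries of the same 4, so this was all but fixed in advance. The count of calls was 451 with RLE scaling and 303 with a stricter filter (5 CPM in 2 libraries). It was 153 (101 higher, 52 lower) with library totals as the only scaling, which moved the median log2 fold change of all genes to 0.161 and the share of higher calls from 50.6% to 66.0%; the calls under that scaling are relative to this shift. It was 1618 (916 higher, 702 lower) with no filter, 838 (441 higher, 397 lower) with DESeq2, 24 (11 higher, 13 lower) in the fit of all 8 libraries and 120 (62 higher, 58 lower) in the fit with the mutant GA3 libraries, 6 in all. Leaving out single libraries gave 669 to 1553 calls (396 to 863 higher, 273 to 690 lower): 1553 and 711 without M82 libraries 1 and 2, 965 and 669 without mutant libraries 1 and 3. In those fits 1 library was assumed to vary like the other group, and edgeR's estimated prior degrees of freedom were 48.9, 661 or infinite (also infinite with no filter), against 9.37 as reported and 5.62 with all 8 libraries, so their calls lean almost wholly on the spread pooled over genes. A 2-fold minimum removed 3 genes. The library numbers were not taken as pairs: the deviations of same-numbered libraries correlated at -0.0813. With a replicate block (number 1 against the other library) the calls were 108 (55 higher, 53 lower), 106 of them among the 356 and 0 with a mean over 100 CPM. Of the 4 named genes, 1 missed the threshold in 1 alternative, Solyc11g021060.1 without mutant library 1 (adjusted p = 0.129); Solyc01g081250.2 was not tested under the stricter filter. The counts for chromosome 3, abundant genes and neighbours were repeated under each setting after the data were seen. The cause of these shifts was not tested otherwise.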
